A study of Mus musculus with 6 samples.

Results

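The SOCS family (suppressors of cytokine signalling) has 8 genes in the mouse, *Socs1* to *Socs7* and *Cish*. They were picked by gene symbol from a table of 59485 genes measured by RNA-seq in sciatic nerves at P4 (postnatal day 4). Each symbol matched 1 row, and all 8 genes were among the 25802 that were tested because their mean reached 10 in either genotype. The rows were matched by symbol and not by a measured value, but the family was chosen with earlier results of these data known. The 3 control animals are labelled wild-type, a name that the methods give to R26R animals without Cre whose *Adar1* is *fl/fl* or *fl/+*, so both groups carry floxed *Adar1* and the R26R allele. The 3 mutant animals are *HtPA-Cre; Adar1 fl/fl; R26R*, in which Cre is driven in neural crest (NC) cells by the human tissue plasminogen activator promoter and R26R marks these cells with YFP. Schwann cells (SCs) of the nerve come from the NC, while macrophages, endothelial cells and blood cells do not. A value is a normalized read count, that is the reads on the constitutive regions of a gene divided by a DESeq2 size factor of the library. Each library is a whole nerve, so fewer cells of a type and less RNA per cell cannot be told apart.

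SOCS proteins close a negative feedback loop on cytokine receptors. A cytokine or interferon brings receptor-bound JAK kinases together, the kinases phosphorylate STAT transcription factors, and STAT dimers switch on *Socs* genes among many others. The SOCS proteins hold an SH2 domain that binds phosphotyrosines and a SOCS box that recruits elongins and a cullin, so that bound proteins are ubiquitinated and degraded. SOCS1 and SOCS3 also carry a kinase inhibitory region that blocks JAKs directly. SOCS1 is best known for restraining interferon receptors and SOCS3 for restraining gp130, the shared receptor chain of the IL6 and LIF family, while CISH and SOCS2 restrain STAT5-activating receptors.

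Both kinds of DNA letters through which STATs are known to act were searched in the promoters, here the 250 bases before and the 50 bases after the gene start in RefSeq (GRCm38.p6, the sequence of mm10). Windows were given for 4 of the 8 genes, *Socs1*, *Socs3*, *Socs4* and *Cish*, and *Socs2*, *Socs5*, *Socs6* and *Socs7* were not searched. TTCNNNGAA, the palindrome bound by STAT dimers, was present in 8.30% of all 32851 windows, and GAAANNGAA, part of the interferon-stimulated response element, in 8.56%, on either strand. The *Socs1* window held 2 overlapping GAAANNGAA matches and no TTCNNNGAA. The *Socs3* window held 1 TTCNNNGAA and the *Cish* window 2, and neither held GAAANNGAA. The *Socs4* window held neither set of letters. The lines below show the matched stretches because they are the matches found in this search, and are written 5′ to 3′ on the strand of the gene, with the matched letters in capitals.
Socs1 promoter: cttgccgGAAAGAGAAACCGAAagcgggg
Socs3 promoter: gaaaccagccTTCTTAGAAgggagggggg
Cish promoter: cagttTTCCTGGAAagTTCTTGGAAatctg
The *Socs1* stretch (chr16:10785598-10785626, minus strand) and the *Socs3* stretch (chr11:117969502-117969530, minus strand) lie upstream of the protein-coding transcripts in GENCODE M21. The *Cish* stretch (chr9:107296654-107296683, plus strand) spans the RefSeq start and falls in an untranslated exon of GENCODE M21. A match of letters is a description and was not tested as a binding site.

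Read against all genes, the family was mostly higher in the mutants. With limma's moderated test on log2(value + 1), 2 of the 8 genes, *Socs1* and *Socs3*, rose past the threshold of an unadjusted p at or under 0.05 and at least 2-fold, and none fell past it, as also with edgeR and DESeq2 on the recovered reads. Of all tested genes, 13.9% rose and 10.4% fell past that 2-fold threshold. At an unadjusted p at or under 0.05 with no fold limit, 7 members were higher and 0 lower, against 24.2% of tested genes higher and 20.8% lower. For 7 of the 8 genes all 3 mutant values lay above all 3 control values, which held for 25.9% of tested genes, while 23.3% had all mutant values below; only *Socs7* overlapped. Without the fold limit, 6 members were higher at an adjusted p at or under 0.05, against 19.0% of tested genes higher and 16.0% lower. The median log2 fold change was 0.77 over the members and 0.03 over all tested genes. Added up, the normalized counts of the 8 genes were 8687, 8325 and 7545 in control replicates 1, 2 and 3 and 20029, 19636 and 18420.5 in mutant replicates 1, 2 and 3, a ratio of 2.37 between the means. Members had between 192 and 9192 reads in a library.

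**Figure D1:**
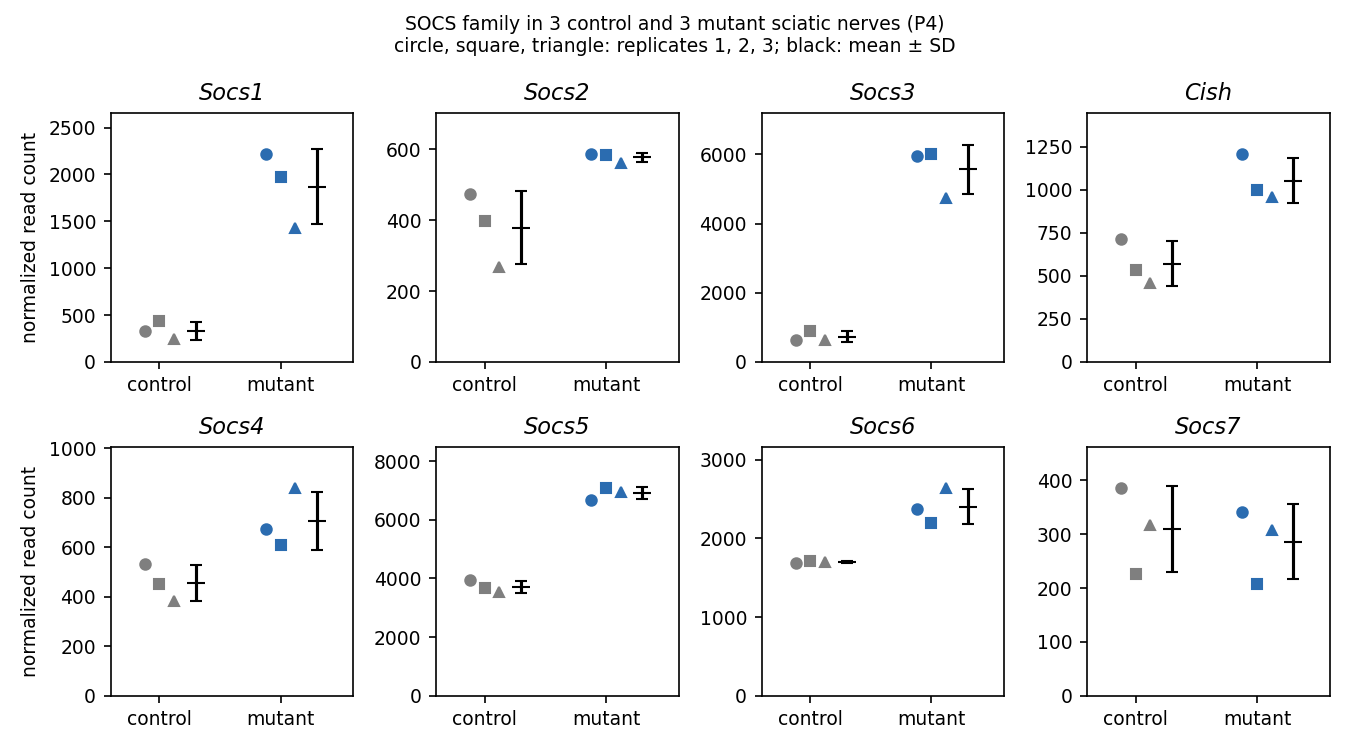
Normalized read counts of the 8 SOCS family genes in each library, 1 panel per gene with its own linear axis from 0. Grey symbols are the 3 controls and blue symbols the 3 mutants (circle, square and triangle for replicates 1, 2 and 3), and the black bar is the mean ± SD; the genotypes are apart in every panel but that of Socs7.

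*Socs3*, the inhibitor of gp130 receptors, had the largest change of the family. Its normalized counts were 634, 907 and 632 in control replicates 1, 2 and 3, and 5953, 5997 and 4740 in the mutants, so the lowest mutant was far above the highest control. The means were 725 ± 158 and 5563 ± 713 (SD, n = 3 each), a ratio of 7.68. The log2 fold change was 2.95 (SE 0.17, 95% interval 2.57 to 3.34, limma adjusted p = 1.1e-05). Ranked by log2 fold change, *Socs3* stood at place 1363 of the 25802 tested genes, within the top 5.28%. The gene (GSMG0007690) lies at chr11:117966089-117969366 on the minus strand.

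*Socs1*, the inhibitor of interferon receptors, rose as well. Controls had 325, 434 and 243 normalized counts and mutants 2213, 1968 and 1431, again with a wide gap between the genotypes. Means of 334 ± 95.5 and 1871 ± 400.1 gave a ratio of 5.60. The log2 fold change was 2.50 (SE 0.24, 95% interval 1.95 to 3.05, limma adjusted p = 0.000138), place 1888 of the tested genes or the top 7.32%. The intervals of *Socs1* and *Socs3* overlap, and the difference between their changes was not tested. The gene (GSMG0015433) lies at chr16:10782243-10785538 on the minus strand. For both genes the highest control was replicate 2 and the lowest mutant was replicate 3. Without control replicate 2 the log2 fold change was 2.71 for *Socs1* and 3.12 for *Socs3*.

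*Cish*, a target of STAT5 that restrains receptors such as that of IL2, was higher in the mutants by less than 2-fold. It had 716, 535 and 460.0 normalized counts in the controls, and the mutants had 1206, 1002 and 956. The genotypes did not overlap. The means were 570.3 ± 132 and 1055 ± 133, the log2 fold change was 0.90 (SE 0.19, 95% interval 0.47 to 1.34) and the limma adjusted p was 0.00687. The interval spans a 2-fold change, and without control replicate 1, the highest control, the value was 1.08 and passed the threshold. *Cish* (GSMG0040049) lies at chr9:107296659-107302784 on the plus strand.

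*Socs2*, the brake on growth hormone signalling, showed the weakest evidence among the 7 genes without overlap. The controls were spread over 473, 397 and 267 normalized counts, whereas the mutants were close together at 586, 585 and 563. The SD was 104 in the controls and 12.9 in the mutants, and the latter is under the counting error of 22.7 computed from the reads. The log2 fold change was 0.65 (SE 0.22, 95% interval 0.14 to 1.15, unadjusted p = 0.0179, limma adjusted p = 0.0508). *Socs2* (GSMG0043692) lies at chr10:95411490-95416857 on the minus strand.

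*Socs5*, which acts on IL4 and EGF receptors, was the most abundant member in reads and had a precise change below 2-fold. Normalized counts were 3939, 3655 and 3547 in the controls, against 6686, 7074 and 6946 in the mutants. The genotypes were far apart, with CVs of 5.45% and 2.86%. Its log2 fold change was 0.90 (SE 0.087, 95% interval 0.70 to 1.09, limma adjusted p = 0.000142). It was as large as that of *Cish*, with an SE of 0.087 against 0.19. When libraries were scaled to the same total, which moved the median of all tested genes from 0.03 to 0.19, *Socs5* stood at 1.06 and *Cish* at 1.07, both past the threshold. *Socs5* (GSMG0017029) lies at chr17:87107679-87137583 on the plus strand.

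*Socs4*, the closest relative of *Socs5*, had 531, 453 and 383 normalized counts in the controls, against 672, 611 and 839 in the mutants. The lowest mutant was 611 and the highest control 531. Its log2 fold change was 0.63 (SE 0.19, 95% interval 0.21 to 1.06, limma adjusted p = 0.0299, or 0.0611 with a block for the replicate number). *Socs4* (GSMG0011486) lies at chr14:47277012-47291591 on the plus strand.

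*Socs6* and *Socs7* encode proteins that bind, among others, insulin receptor substrates and the adaptor NCK1. *Socs6* had 1683, 1718 and 1696 normalized counts in the controls, an SD of 17.4 that is below the counting error of 43.3. In the mutants it had 2372, 2192 and 2637, with no overlap. This gave a log2 fold change of 0.49 (SE 0.11, 95% interval 0.25 to 0.74, limma adjusted p = 0.00787), the smallest of the 7 genes that did not overlap. *Socs7* had 385, 227 and 317 normalized counts in the controls, against 341, 207 and 309 in the mutants. Its values were interleaved, with a log2 fold change of -0.11 (SE 0.27, 95% interval -0.74 to 0.51, limma adjusted p = 0.777). This interval leaves out a 2-fold change in either direction, and the sign turns to 0.049 when libraries are scaled to the same total. *Socs6* (GSMG0019237) lies at chr18:88688066-88894340 on the minus strand and *Socs7* (GSMG0005858) at chr11:97362453-97398542 on the plus strand.

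**Figure D2:**
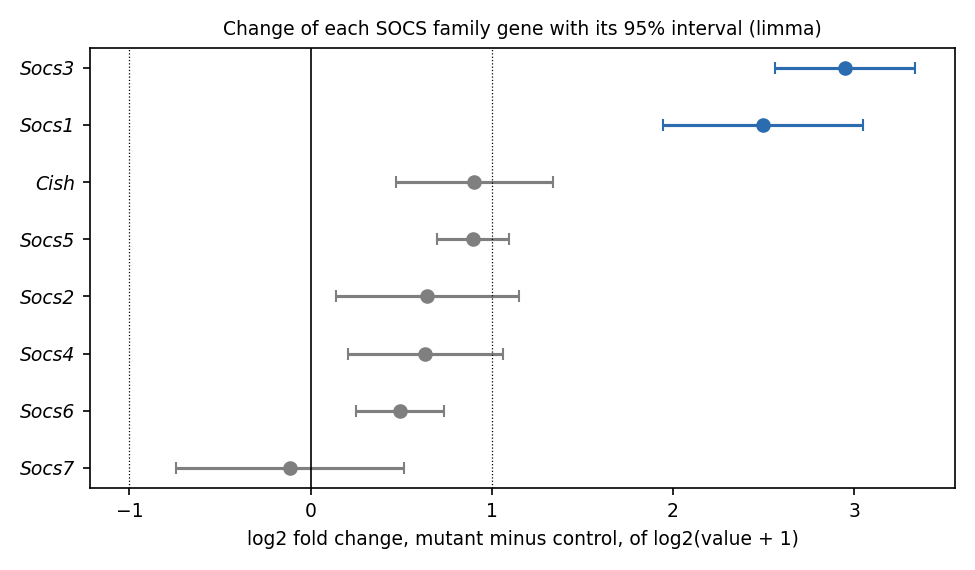
Log2 fold change (mutant minus control, on the log2(value + 1) scale) of each SOCS family gene with its 95% interval from limma, ordered by size. Blue marks the 2 genes past the threshold, dotted lines mark a 2-fold change; Socs1 and Socs3 lie wholly beyond the right line, 5 genes lie between 0.49 and 0.90, and the interval of Socs7 spans 0.

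The libraries of a genotype did not differ in the same way for every member. Control replicate 3 was the lowest control for 6 of 8 genes (*Socs1* to *Socs5* and *Cish*), and control replicate 1 the highest for 5. Mutant replicate 3 was the lowest mutant for 4 genes (*Socs1*, *Socs2*, *Socs3* and *Cish*) and the highest for *Socs4* and *Socs6*. Without mutant replicate 3 the log2 fold change was 0.50 for *Socs4* and 0.42 for *Socs6*, with limma adjusted p of 0.0984 and 0.0257. The adjusted p of *Socs4* lay between 0.0263 and 0.0984 when each library was left out in turn, and that of *Socs2* between 0.0249 and 0.125. For *Socs1*, *Socs3*, *Socs5*, *Socs6* and *Cish* it stayed at or under 0.0311 in each of these fits.

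Levels between genes were compared per kb of exon (union of GENCODE M21 exons within the interval of the table), as the lengths of the constitutive regions are not given in the sources used here. In controls, *Socs5* was the highest member at 846 ± 46.1 normalized counts per kb (SD, n = 3). *Socs3* (285 ± 62.2) and *Socs6* (277 ± 2.85) followed and overlapped. Next came *Socs4* (199 ± 32.4), *Cish* (189 ± 43.7), *Socs2* (141 ± 38.5) and *Socs1* (115 ± 32.9), where each neighbour overlapped the next. *Socs7* was the lowest at 44.1 ± 11.3 and apart from *Socs1* in all 3 controls. In mutants, *Socs3* was the highest at 2188 ± 281 per kb and lay above *Socs5* (1572 ± 45.0) in all 3 libraries. *Socs1* moved from the seventh to the third place at 644 ± 138, apart from *Socs6* (392 ± 36.5). *Socs6*, *Cish* (349.9 ± 44.1) and *Socs4* (309 ± 51.6) overlapped as neighbours, and *Socs2* (214 ± 4.78) and *Socs7* (40.7 ± 9.94) came last. The middle of the order depended on the length used. Per kb of the exons that all transcripts share, *Socs2* took place 3 and *Socs6* place 2 in the controls, and *Socs1* place 5 in the mutants. The places of *Socs5* and *Socs7* in controls and of *Socs3*, *Socs5* and *Socs7* in mutants were equal with both lengths.

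**Figure D3:**
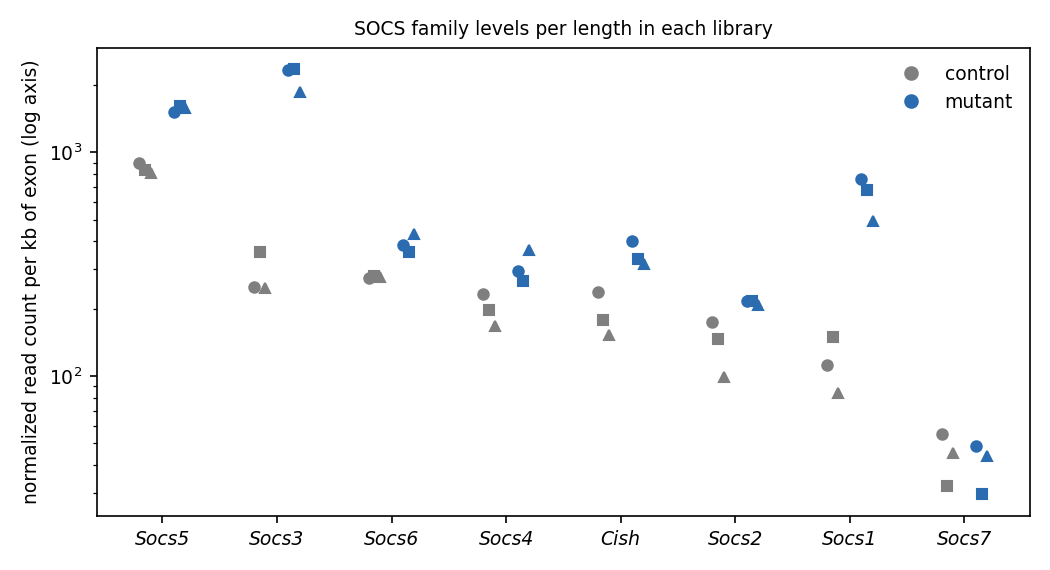
Normalized read count per kb of exon (log axis) of each SOCS family gene in the 3 controls (grey) and 3 mutants (blue), with genes ordered by their control mean and circle, square and triangle for replicates 1, 2 and 3. Socs5 is the highest in controls and Socs3 the highest in mutants, and Socs7 is the lowest in both.

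The make-up of the family shifted with these levels. As a share of the summed level per kb of the 8 genes, *Socs3* made up 11.2%, 16.4% and 13.2% in control replicates 1, 2 and 3 and 39.2%, 40.3% and 35.1% in the mutants. The share of *Socs1* went from 5.45% ± 1.26 to 11.2% ± 1.76 (SD, n = 3). *Socs5* made up 40.5% ± 2.34 in controls and 27.6% ± 2.16 in mutants, although its own level was higher in the mutants. Shares add up to a fixed total, so those of the genes that changed little had to be lower. The percentages use the union of exons and depend on that length. They were not computed per kb of shared exons, where *Socs6* had a control mean of 653 instead of 277.

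The family was then placed beside the parts of its pathway, each a list of genes whose counts are to be read against the 13.9% of all tested genes that rose and the 10.4% that fell past the threshold. Among ligands that signal through JAKs, 17 of 29 genes were tested, 12 of them rose past the threshold and none fell, with a median log2 fold change of 3.18. *Lif*, a ligand of gp130 receptors, had 414, 387 and 274 normalized counts in controls and 8586, 9741 and 7782 in mutants, a log2 fold change of 4.61. *Il6*, another gp130 ligand, had 10 normalized counts or fewer in each control and 412 to 508 in the mutants. *Ifnb1*, a type I interferon that SOCS1 counters, was at 0 in all controls and at least 139-fold higher in the mutants, taking 3 reads in a library as the floor. *Ifng*, the type II interferon, was at 0 in the controls and at 7.27, 28.9 and 11.9 in the mutants.

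Of 19 tested receptors and adaptors that SOCS proteins bind, 6 rose and 1 fell past the threshold (median 0.51), beside 13.9% and 10.4% of all tested genes. The gene that fell, *Epor*, had a limma adjusted p of 0.0562 and was not past the threshold without control replicate 1, control replicate 3 or mutant replicate 3. *Il6st*, which encodes gp130, rose by 1.13 on the log2 scale. The growth hormone receptor gene *Ghr*, a target of SOCS2, had a log2 fold change of 0.76 and stayed under 2-fold. *Csf3r* (3.28), *Il2rb* (2.80), *Il4ra* (2.0) and *Lepr* (1.84), receptor genes for G-CSF, IL2, IL4 and leptin, had the largest rises.

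Among the 11 JAKs and STATs, 5 rose and none fell past the threshold (median 0.67). Among them were *Stat2* (2.98), the kinase *Jak3* (1.62) and *Stat3* (1.36), the main STAT of gp130 receptors. *Jak1* (0.67), *Jak2* (0.40), *Stat5a* (0.54), *Stat5b* (0.57) and *Tyk2* (-0.57) stayed under 2-fold. Of the target genes, 16 of 19 tested STAT3 targets (median 2.84) and 4 of 10 STAT5 targets (median 0.62) rose, and none fell past the threshold. Without mutant replicate 1, 2 of the 10 STAT5 targets rose past it. The log2 fold change of *Socs3* (2.95) lay close to the median of the STAT3 targets. *Cish* (0.90) and *Socs2* (0.65) lay at or above the median of the STAT5 targets. The target lists were drawn up from background knowledge, and several of their genes respond to other factors too.

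Setting a member against a partner in the same library removes the size factor. These pairs were chosen after the values were seen, and 0.1 is the smallest p that the exact two-sided permutation test allows for 3 against 3 animals. *Socs3* per *Stat3* read was 0.161, 0.210 and 0.187 in control replicates 1, 2 and 3 and 0.570, 0.637 and 0.482 in the mutants (exact permutation p = 0.1). *Socs3* was thus higher relative to *Stat3* in every mutant, by 1.59 on the log2 scale, and relative to *Il6st* by 1.82. *Socs1* per *Usp18*, a feedback inhibitor of the type I interferon receptor, was lower in every mutant. It was 1.07, 0.719 and 1.5 in the controls, against 0.0900, 0.103 and 0.0595 in the mutants (exact permutation p = 0.1). *Cish* was higher in every mutant relative to *Stat5a* (by 0.37 on the log2 scale) and to *Stat5b* (by 0.33), both with exact permutation p = 0.1. *Socs2* relative to *Ghr* overlapped, with means of 0.427 ± 0.0291 in controls and 0.398 ± 0.0685 in mutants (exact permutation p = 0.5).

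**Figure D4:**
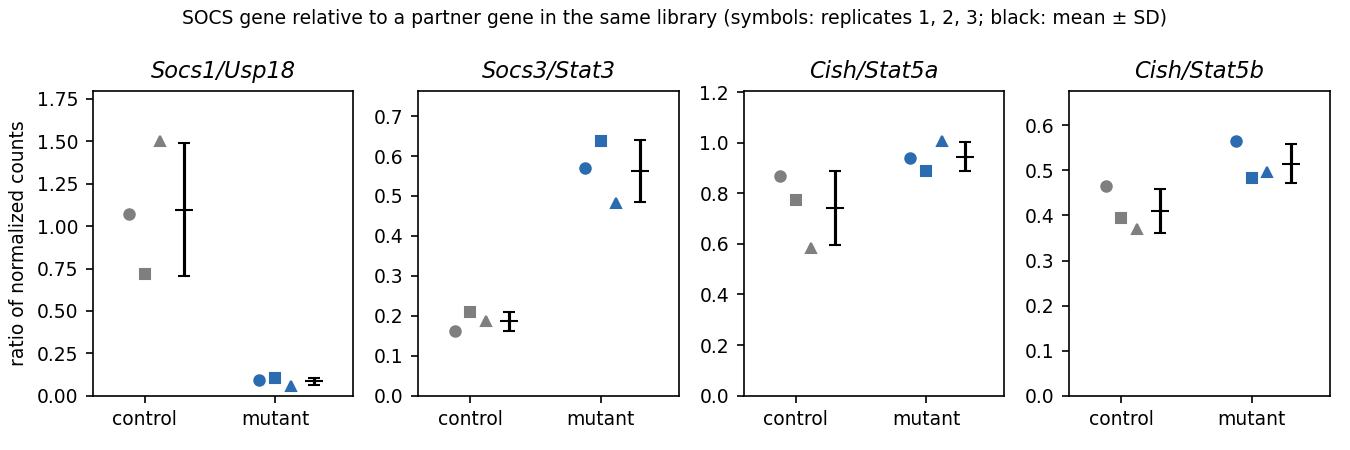
Ratio of the normalized counts of a SOCS gene to those of a partner gene within each library (linear axes from 0), for 3 controls (grey) and 3 mutants (blue), with circle, square and triangle for replicates 1, 2 and 3 and the mean ± SD in black. Socs3/Stat3 and both Cish ratios are higher in all mutants, and Socs1/Usp18 is lower in all mutants.

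Other restraints on JAK-STAT signalling formed a list of 12 genes, of which 3 rose and none fell past the threshold (median 0.51), beside 13.9% and 10.4% of all tested genes. *Usp18* (6.18) changed far more than *Socs1*, the phosphatase gene *Ptpn2* rose by 1.70 and the ubiquitin ligase gene *Cblb* by 1.17. *Ptpn6* (0.81), *Sh2b3* (0.80), *Pias1* (0.56), *Cbl* (0.47), *Ptpn11* (0.29), *Pias4* (0.25), *Ptpn1* (0.23), *Pias2* (-0.03) and *Pias3* (-0.43) stayed under 2-fold. The 10 elongin-cullin ligase genes, through which the SOCS box acts, gave no change past the threshold with limma, edgeR or DESeq2 (median 0.10), while 4 were higher and 4 lower at an unadjusted p at or under 0.05 with no fold limit (24.2% and 20.8% of all tested genes). Of 25 tested genes of other proteins with a SOCS box, 5 rose and 2 fell (median 0.39), beside 13.9% and 10.4% of all tested genes. *Asb11* (4.39), *Asb2* (2.61) and *Spsb1* (2.24) had the largest rises and *Asb15* fell by 1.52 on the log2 scale. *Asb11* (37.8, 21.2 and 119 normalized counts in mutant replicates 1, 2 and 3) and *Asb2* (409, 276 and 558) were in the same order over the mutants as the summed skeletal muscle markers (96398, 41726 and 313376), and the part of muscle in these rises was not tested.

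The genes most like *Socs1* and *Socs3* across the 6 libraries were sought among 13041 named genes with a mean of at least 100. For *Socs1* these were *Rab21* (Pearson r = 0.998), *P3h2* (0.997) and *Gm36878* (0.997), and for *Socs3* they were *Mirg* (0.999), *Atg3* (0.998) and *Gm36878* (0.998). The 6 points share the split into 2 genotypes, and no p is given.

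Reads on genes ranged from 50938349 to 68654387 in the controls and from 57047095 to 78250094 in the mutants. *Adar*, the targeted gene, had 1602, 2066 and 1133 normalized counts in controls and 11768, 9311 and 9773 in mutants. A single value per gene cannot separate the deleted segment, so it does not check the labels, and control and mutant stand here for libraries labelled so. Control replicate 2 had the highest *Usp18* value of the controls, with 603 normalized counts against 303 and 162 in replicates 1 and 3. The mutants had 19116 to 24600. Sums of 8 SC markers were 1155884 to 1529275 in controls and 65476 to 227244 in mutants, with 4 genes lower past the threshold. The median log2 fold change over these 8 genes was -1.13. By electron microscopy at P4, the paper reports a similar number of SCs in mutants and controls. Skeletal muscle markers (6 of 8 higher) summed to 6506 to 32909 in controls and 41726 to 313376 in mutants, the highest being mutant replicate 3, where *Socs4* and *Socs6* were highest too. T and NK cell markers (6 of 8 tested higher) summed to 117 to 229.9 in controls, where *Cd3d*, *Cd8a* and *Ncr1* were at 0, and 440.1 to 628 in mutants. For neutrophil markers (1 of 4 tested higher) the sums were 29.3 to 174 and 152 to 554, with *Ly6g* at 0 in the controls. Macrophage markers summed to 18700.2 to 23178 and 15877 to 19279 (1 of 10 higher, 4 lower). Of 5 erythroid markers all 5 were lower, of 6 fibroblast and perineurial markers 1 was lower, and none of 4 tested B cell, 5 adipocyte and 6 endothelial markers passed the threshold with limma, edgeR or DESeq2, 3 of the endothelial ones being higher at an unadjusted p at or under 0.05 with no fold limit (24.2% of all tested genes). The part of these cell types in the values of the SOCS genes was not tested. Counts of markers past the threshold are to be read against the 13.9% of all tested genes that rose and the 10.4% that fell.

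Unnamed rows of the table overlap 5 members, on the opposite strand for *Socs1*, *Socs3* and *Cish* and on the same strand for *Socs2* and *Socs6*. None of these rows was above 147 normalized counts in any library. The libraries were oriented, but whether strand was used in counting is not given in the sources used here.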

How the data were processed

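Poly-A RNA-seq libraries of 6 sciatic nerves, 3 per genotype as labelled, were analysed. Per the study's methods and the submitters' notes, the authors mapped oriented paired-end reads to mm10 with STAR 2.4.0 and counted those on constitutive regions of FAST DB genes. The deposited signal of a gene in a library is this count divided by a DESeq2 size factor, and dividing by the value of 1 read gave whole reads for 100% of values (tolerance 0.01). No column was left out.

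log2(value + 1) was fitted with limma 3.58.1 (lmFit, eBayes with trend) in R 4.3.3, mutant minus control, over the 25802 genes with a mean of at least 10 in a genotype. Genes passed at an unadjusted p at or under 0.05 and at least 2-fold, the limits of the methods, and p-values were adjusted by Benjamini-Hochberg over all tested genes. With the pseudocount of 1, changes of low genes are understated. Alternatives included edgeR 4.0.16 and DESeq2 1.42.0 on the recovered reads, other scalings and filters, and leaving out each library. The fit was tested on simulated data.

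The members, the pathway lists and the 10 marker lists were chosen with earlier results of these data known. Named were all members, JAKs, STATs and other restraints, up to 4 genes with the largest non-overlapping changes per other list, and the 3 genes most like each member past the threshold. *Il6st*, *Ghr* and *Epor* fall outside this rule and were named after their values were seen. Protein sequences were not used here, and some results are not reported here. P-values rest on the spread between 3 animals per genotype.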

Additional observations from a re-analysis of the deposited data

How the results depend on the processing

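For the 28 results, 13 other settings were tried and each of the 6 libraries was left out once, which gave 532 values. Of the 152 values for single SOCS genes, 142 kept their direction and their side of the threshold. Of the 380 counts of genes past the threshold, 325 were equal to the count reported, 38 differed by up to 1.5 times and 17 by more. The 38 included 13 STAT3 targets and 3 STAT5 targets higher with DESeq2, 10 ligands higher with a mean of at least 50, and 2 other restraints higher without control replicate 3. With libraries scaled to the same total, the median of all tested genes moved from 0.03 to 0.19 (log2) and 4239 genes rose and 2168 fell, against 3580 and 2671. In that setting 4 SOCS genes and 1 elongin-cullin gene rose past the threshold, with *Socs5* at 1.06 and *Cish* at 1.07, and *Socs7* turned to 0.049. With the same 75th percentile 1 elongin-cullin gene fell past it. An adjusted p at or under 0.05 with the 2-fold limit left 0 receptors lower. The same adjusted p without a fold limit gave 6 SOCS genes higher (*Socs4* 0.63, *Socs5* 0.90, *Socs6* 0.49 and *Cish* 0.90 now passed), 9 JAKs and STATs higher and 1 lower, 3 elongin-cullin genes higher and 2 lower, 4 other SOCS-box genes lower, and 6 other restraints higher and 1 lower, since that rule drops the fold limit. When 1 library was left out, 2 to 3 SOCS genes rose (3 without control replicate 1, with *Cish*), *Cish* ranged from 0.76 to 1.08, *Socs7* from -0.32 to 0.10 (0.06 without control replicate 1 and 0.10 without mutant replicate 2), STAT5 targets higher from 2 (without mutant replicate 1) to 4, and receptors lower and elongin-cullin genes lower from 0 to 1; *Epor*, the only receptor gene lower, was not past the threshold without control replicate 1, control replicate 3 or mutant replicate 3. *Socs1* (2.29 to 2.71) and *Socs3* (2.86 to 3.12) kept their call. Apart from these shifts the causes were not tested.

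Control and mutant replicates share the numbers 1 to 3, but their deviations did not correlate by number (r = -0.0619, -0.0555 and 0.00891), so the samples share only a number. A block for the replicate number gave 3560 genes higher and 2589 lower, changed no call of a SOCS gene at the 2-fold threshold, and left *Socs1* at 2.50 and *Socs3* at 2.95. The adjusted p of *Socs4* went from 0.0299 to 0.0611 under the block and to 0.0690 with eBayes without trend, so 5 members instead of 6 were higher at an adjusted p at or under 0.05 there. That of *Socs2* (0.0508) was 0.0474 with a pseudocount of 10, 0.0427 with a mean of at least 50, 0.0255 with the same total and 0.0369 with DESeq2. It was above 0.05 with a pseudocount of 0.1 (0.0571), no filter on low values (0.0597), the same 75th percentile (0.0668) and TMM factors (0.0524). The same held for eBayes without trend (0.102), edgeR (0.0702) and the block (0.0592). At 192 reads or more per library, the counting error of the 8 genes was below the SD between animals except for *Socs6* in controls and *Socs2* in mutants.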
